A study of Mus musculus with 4 samples.

Results

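The cadherins and the non-clustered protocadherins were followed in sections of mouse brain organoids grown with 4 different retinoid supplies. Members were all genes of the deposited matrices whose symbol is Cdh or Pcdh followed by a number, with or without a final x, so that the clustered alpha, beta and gamma protocadherins are left out. The rule found 35 genes of the 22218 listed in at least 1 section. Of these, 23 are cadherins and 12 are protocadherins, and all 35 were listed in every section. They were ordered by structure into 5 type I classical cadherins, 13 type II classical cadherins, 5 other cadherins, 4 delta-1 protocadherins, 5 delta-2 protocadherins and 3 other protocadherins.

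The organoids came from an embryonic stem cell line with the genotype CARLIN/Cas9, which carries a lineage barcode and the nuclease that edits it, and all groups share this line. Embryoid bodies of 5000 cells per well were embedded in Matrigel on day 6. From day 9 the medium held either 2% B27 with vitamin A (VitaminA) or, in medium with B27 free of vitamin A, a synthetic or natural ligand of the retinoic acid receptors. The ligands were all-trans retinoic acid at 1 µM (ATRA), which activates all of these receptors, BMS753 at 1 µM, an agonist of receptor alpha, and BMS961 with BMS641 at 0.1 µM (BMS961+BMS641), which act on the gamma and the beta receptor. The doses of ATRA and BMS753 thus match and that of the pair is lower. Tissue was taken after 3 months. The labels put several organoids in a frozen mold, which leaves the number of organoids in a section unstated, and each treatment has 1 section. With 1 section for each treatment there are no replicates, no test between treatments was possible, and every difference below describes these sections. The only error given is the spread over the 4 quadrants of a section, which measures variation inside that section and says nothing of other organoids.

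Cadherins are membrane proteins whose extracellular repeats bind calcium and join neighbouring cells. In classical cadherins the inner tail binds catenins, which tie the junction to actin, and cells that carry the same cadherin tend to sort together. In the developing brain, N-cadherin holds the neuroepithelium, E-cadherin marks epithelia outside the neural tube, and type II cadherins are expressed in overlapping patterns in groups of neurons. Delta protocadherins bind more weakly, lack the catenin site and act through other tail partners, among them phosphatase PP1 for delta-1 and the WAVE actin complex for several delta-2 members.

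The VitaminA section held 552 spots, ATRA 593, BMS753 469 and BMS961+BMS641 365. A spot is a small area of tissue that can hold several cells or part of one, so fewer cells of a type and less RNA per cell cannot be told apart. The files give a signal that was quantile normalised within each section and no counts. Spot depth is therefore unknown, and no counting interval can be given. A level is the mean signal of a gene over all spots of a section, in ppm of the sum over genes. The median log2 ratio of genes of at least 5 ppm ran from -0.33 (ATRA over VitaminA) to 0.71 (BMS753 over ATRA). For BMS753 it was 0.31 over VitaminA and 0.64 over BMS961+BMS641. Orders of sections by level, and quadrants clear of each other, include this shift. Ratios set against the median gene, called relative, follow further below. The smallest positive values of a spot form a lowest class in which tied ranks were spread by the order of gene rows. This class filled 36.3 to 80.2% of the values in the lower part of the rows, from the middle on, and 0.0328 to 2.89% in the upper part. A gene was therefore called detected in a spot only above that class, which the median spot reached for 3330 to 4659 genes. All 13 neuronal markers were listed in each section, with a summed level of 928 to 1383 ppm. Of them 10 or 11 were detected in at least 20% of spots. This does not test the label of the tissue. The endothelial list summed to more in VitaminA (1136 against 1079.6 ppm) and ATRA (1054 against 928 ppm). The epithelial list did so in BMS961+BMS641 (1609 against 1383 ppm). The other marker lists summed to less, among them neural progenitor markers with 35.2 to 53.1 ppm.

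The 6 members with the widest ratio of their highest section to the next, 2.95 to 33.5, are shown first. Cdh1 (E-cadherin) and Cdh15 (M-cadherin) were high in the BMS961+BMS641 section. Cdh22, Pcdh19, Pcdh12 and Cdh26 were high in the ATRA section. Cdh7 followed, with 2.82 in BMS961+BMS641. With the lowest class set to 0, the section with the highest level was the same for every member except Cdh8 and Pcdh11x.

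Cdh1, the main adhesion molecule of epithelia, stood at 41.2 ppm in VitaminA, 39.6 ppm in ATRA, 52.7 ppm in BMS753 and 502 ppm in BMS961+BMS641. The last section was 9.52 times the next, and its quadrants, at 476 to 514 ppm, did not overlap those of the other sections, at 31.7 to 63.6 ppm. Cdh1 was detected in 97.8% of the BMS961+BMS641 spots and in 33.7 to 39.7% of the spots elsewhere. The sum of the 12 epithelial markers was high in the same section, with 1609 ppm against 161 to 239 ppm in the other sections. Epcam and Grhl2 carried most of this sum, and the median level of the list was 8.01 ppm against 3.92 to 4.85 ppm. Of 7 markers compared with VitaminA, 4 were past 2-fold higher and 1 lower, beside 13.6% and 14.3% of all genes. Within that list Epcam, an epithelial adhesion molecule, stood at 921 ppm in BMS961+BMS641 and at 6.36 to 11.5 ppm elsewhere. Grhl2, an epithelial transcription factor, stood at 478 ppm against 52.3 to 72.9 ppm. The simple-epithelium keratins did not share the pattern: Krt8 was at 18.7 ppm in BMS961+BMS641 and at 52.5 ppm in VitaminA, and Krt18 at 3.59 ppm against 2.75 to 4.87 ppm. The part of epithelial cells in the Cdh1 level was not tested.

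Cdh15, a type I cadherin best known from muscle stem cells and also from cerebellum, stood at 15.3 ppm in VitaminA, 8.95 ppm in ATRA, 19.4 ppm in BMS753 and 649 ppm in BMS961+BMS641. That section was 33.5 times the next, and Cdh15 was detected in 97.3% of its spots against 11.6 to 19.2% elsewhere. Its quadrants ran from 585 to 732 ppm, and no quadrant of another section passed 22.5 ppm. Muscle markers did not stand higher there: the 6 genes summed to 63.1 ppm in BMS961+BMS641 and to 59.8 to 101 ppm in the other sections. Only 2 of the 6 could be compared between BMS961+BMS641 and VitaminA, with a median relative log2 ratio of -0.06. Myod1 (0.708 ppm) and Myog (0.690 ppm), the transcription factors of muscle differentiation, were near 0 in the section with high Cdh15. Their levels in the other sections are not given here. The part of muscle cells in the Cdh15 level was not tested.

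In ATRA the largest level was that of Cdh22, a type II cadherin described in brain and pituitary. It stood at 154 ppm in VitaminA, 640.5 ppm in ATRA, 217 ppm in BMS753 and 62.5 ppm in BMS961+BMS641. The order ATRA, BMS753, VitaminA, BMS961+BMS641 held without overlap of quadrants, the lowest ATRA quadrant being 593 ppm and the highest BMS753 quadrant 233 ppm. Cdh22 was already detected in 68.8 to 82.4% of spots outside ATRA, so its difference is one of level more than of detection.

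Pcdh19, a delta-2 protocadherin of neurons whose loss in humans causes an X-linked epilepsy, stood at 56.1 ppm in VitaminA, 477 ppm in ATRA, 48.6 ppm in BMS753 and 26.5 ppm in BMS961+BMS641. It was detected in 91.2% of ATRA spots and in 24.9 to 43.7% elsewhere. ATRA stood above all other sections and BMS961+BMS641 (18.8 to 31.3 ppm) below them, while the quadrants of VitaminA (47.2 to 64.8 ppm) and BMS753 (43.8 to 59.2 ppm) overlapped.

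Pcdh12, a protocadherin known from endothelium and placenta, stood at 5.19 ppm in VitaminA, 129.7 ppm in ATRA, 14.0 ppm in BMS753 and 6.46 ppm in BMS961+BMS641. Its detection was 70.2% in ATRA and 7.61 to 16.7% elsewhere. The ATRA quadrants began at 109.9 ppm, above the highest other quadrant of 23.2 ppm, while the remaining sections overlapped. Endothelial markers differed among themselves beside it. Their sum was 1136 ppm in VitaminA, 1054 ppm in ATRA, 664 ppm in BMS753 and 790.3 ppm in BMS961+BMS641. Of 7 markers compared in ATRA over VitaminA, 2 were past 2-fold higher and 1 lower, beside 12.1% and 14.6% of all genes. The higher ones were Tek (2.31) and Emcn (2.01), the lower one was Kdr (-1.13), and the median relative log2 ratio was 0.60. Tek, an angiopoietin receptor, was at 169.6 ppm in ATRA against 40.3 to 63.0 ppm, whereas Pecam1 was lowest there, at 20.3 ppm. Cdh5, the cadherin that defines endothelial junctions, was at 6.46 ppm in ATRA and at 4.86 to 16.1 ppm elsewhere. The part of endothelial cells in the Pcdh12 level was not tested.

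Cdh26, a cadherin described in mucosal epithelia, stood at 6.83 ppm in VitaminA, 67.0 ppm in ATRA, 14.5 ppm in BMS753 and 4.91 ppm in BMS961+BMS641. It was detected in 59.7% of ATRA spots and 14.9 to 17.7% elsewhere, and ATRA was the only section whose quadrants (57.1 to 77.2 ppm) stood above all others. Epithelial markers summed to 161 ppm in ATRA, the lowest of the sections, and 1 of the 12, Krt14, was above the lowest class in no ATRA spot. Of 6 markers compared in ATRA over VitaminA, 0 were past 2-fold higher and 1 lower, beside 12.1% and 14.6% of all genes. Their median relative log2 ratio was -0.09, and 0.21 with the lowest class at 0. The part of epithelial cells in the Cdh26 level was not tested.

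**Figure D1:**
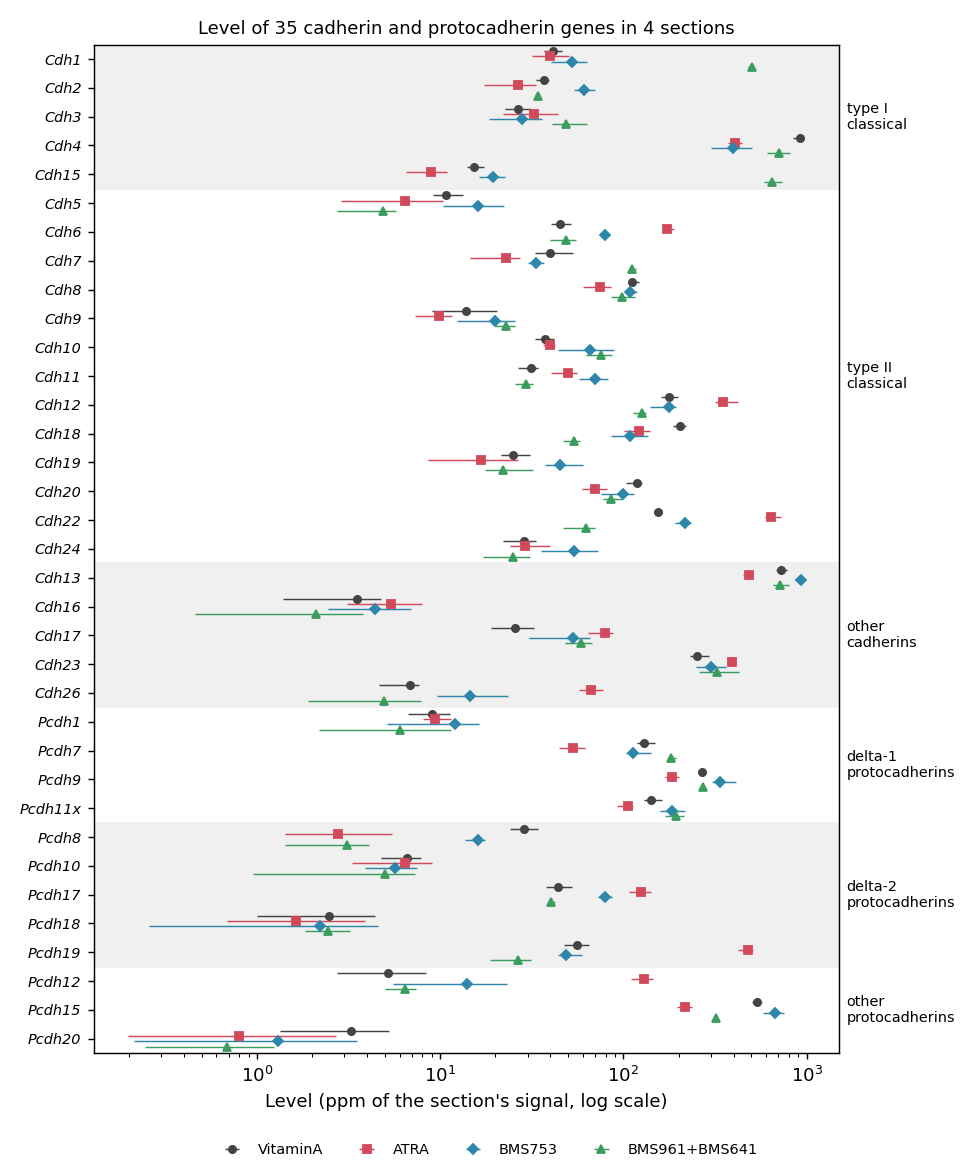
Level of each of the 35 genes (ppm of a section's signal, log scale) in the VitaminA, ATRA, BMS753 and BMS961+BMS641 sections; points are levels and bars run from the lowest to the highest quadrant of a section. Cdh1 and Cdh15 stand at 502 and 649 ppm in BMS961+BMS641 and Pcdh12 and Pcdh19 at 129.7 and 477 ppm in ATRA, each clear of the bars of the other sections.

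Promoters of these genes are shown because they differ between sections by the widest margins. Of the 35 members, 22 have an entry in the RefSeq promoter table (GRCm38.p6), and among the genes named above these are Cdh15, Cdh22, Cdh26 and Pcdh19; they were chosen for printing after their levels had been seen. Each sequence is the 250 bases before the annotated start, 5′ to 3′ on the strand of the gene. Capitals mark GC boxes, the letters GGGCGG, on either strand. The windows are chr8:122848124-122848373 (plus strand, Cdh15), chr2:165234738-165234987 (minus strand, Cdh22), chr2:178430265-178430514 (plus strand, Cdh26) and chrX:133688994-133689243 (minus strand, Pcdh19).
Cdh15: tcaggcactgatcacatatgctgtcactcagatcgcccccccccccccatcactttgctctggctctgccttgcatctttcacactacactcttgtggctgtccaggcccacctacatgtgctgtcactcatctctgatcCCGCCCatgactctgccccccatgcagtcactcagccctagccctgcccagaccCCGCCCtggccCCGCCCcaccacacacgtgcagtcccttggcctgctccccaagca
Cdh22: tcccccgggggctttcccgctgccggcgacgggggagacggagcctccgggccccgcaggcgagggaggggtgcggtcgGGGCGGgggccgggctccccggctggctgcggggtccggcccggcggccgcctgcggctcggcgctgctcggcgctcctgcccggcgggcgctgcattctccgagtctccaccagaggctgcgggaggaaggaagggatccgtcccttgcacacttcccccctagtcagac
Cdh26: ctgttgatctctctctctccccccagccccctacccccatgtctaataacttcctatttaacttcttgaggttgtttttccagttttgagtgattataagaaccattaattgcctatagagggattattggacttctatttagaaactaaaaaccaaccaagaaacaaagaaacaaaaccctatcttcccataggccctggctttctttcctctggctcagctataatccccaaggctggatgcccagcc
Pcdh19: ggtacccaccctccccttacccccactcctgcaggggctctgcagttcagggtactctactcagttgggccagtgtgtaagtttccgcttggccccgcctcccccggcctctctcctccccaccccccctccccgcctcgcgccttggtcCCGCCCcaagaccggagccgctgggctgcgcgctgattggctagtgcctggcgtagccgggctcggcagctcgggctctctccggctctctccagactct

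The Cdh15 window, with 62.0% G and C, holds 3 GC boxes, which start 110, 56 and 45 bases before the gene. Cdh22 (77.6% G and C) holds 1 at 171 bases and Pcdh19 (69.2%) 1 at 100 bases. Cdh26, at 42.8%, holds none. Over the 25 member promoters, which belong to 22 genes, GGGCGG was found in 36.0%, and in 32.7% of all 32851 promoters. The core site of retinoic acid receptors, AGGTCA, was searched on both strands and found in 1 of the 25 (4.00%, Cdh18) against 14.0% of all promoters. The E-box CACCTG of Snail and Zeb factors was found in 3 (12%, promoters of Cdh7 and Pcdh15) against 17.2%, and TATAAA in 2 (8.00%, Pcdh15 and Pcdh8) against 12.4%. None of these motifs contains another. The 4 printed windows hold none of the last 3 motifs, which says only that these letters are not in these windows.

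Among the other type I cadherins, Cdh4 (R-cadherin, which guides axons in the retina and brain) had the highest levels. It stood at 916 ppm in VitaminA, 408 ppm in ATRA, 396 ppm in BMS753 and 706 ppm in BMS961+BMS641. In level VitaminA was above all other sections in every quadrant, BMS961+BMS641 came next, and ATRA and BMS753 overlapped. Set against the median gene, Cdh4 in BMS961+BMS641 over VitaminA was at -0.12, and at 0.16 with the lowest class at 0. In BMS753 over ATRA it was at -0.76. Cdh2 (N-cadherin, the cadherin of neural progenitors and neurons) stood at 37.0 ppm in VitaminA, 26.6 ppm in ATRA, 60.7 ppm in BMS753 and 34.4 ppm in BMS961+BMS641. BMS753 was above all other sections in every quadrant, and detection ran from 36.6 to 53.4% of spots. Cdh3 (P-cadherin, of basal epithelia and placenta) stood at 26.6 ppm in VitaminA, 32.5 ppm in ATRA, 28.1 ppm in BMS753 and 48.7 ppm in BMS961+BMS641, where only the last was clear of VitaminA and BMS753 and its quadrants still overlapped those of ATRA. Summed over the 5 genes, type I cadherins reached 1036 ppm in VitaminA, 516 ppm in ATRA, 557 ppm in BMS753 and 1939 ppm in BMS961+BMS641. Cdh4 carried most of the sum in the first 3 sections, and Cdh1, Cdh4 and Cdh15 together in the last.

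Of the 13 type II cadherins, Cdh6 and Cdh12 joined Cdh22 in being highest in ATRA. Cdh6, described in kidney, neural crest and parts of the visual system, stood at 45.2 ppm in VitaminA, 174 ppm in ATRA, 79.5 ppm in BMS753 and 48.5 ppm in BMS961+BMS641. It was detected in 75.0% of ATRA spots and 39.7 to 46.3% elsewhere, and the ATRA quadrants (165 to 188 ppm) were clear of BMS753 (78.0 to 80.7 ppm). Cdh12, a brain cadherin, stood at 177 ppm in VitaminA, 349 ppm in ATRA, 177 ppm in BMS753 and 126 ppm in BMS961+BMS641. Its row lies near the end of the matrices, and with the lowest class set to 0 these levels were 175, 370.4, 148 and 119 ppm, so that ATRA remained highest and BMS961+BMS641 lowest in level. The relative log2 ratio of Cdh12 in BMS753 over BMS961+BMS641 was -0.16, so BMS961+BMS641 was not lowest on that scale.

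Cdh7 and Cdh10 were highest in BMS961+BMS641. Cdh7, described in neural crest and in developing brain, stood at 39.6 ppm in VitaminA, 22.8 ppm in ATRA, 33.3 ppm in BMS753 and 112 ppm in BMS961+BMS641. The last section was 2.82 times the next with no overlap of quadrants, and detection there was 75.9% against 26.3 to 39.5%. Cdh10, expressed in cortex and in brain vessels, stood at 37.3 ppm in VitaminA, 39.7 ppm in ATRA, 65.8 ppm in BMS753 and 75.2 ppm in BMS961+BMS641. BMS753 (44.2 to 88.8 ppm) and BMS961+BMS641 (62.3 to 86.2 ppm) overlapped each other, and both lay above the remaining sections in level. The relative log2 ratio of Cdh10 in BMS753 over ATRA was 0.00.

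Cdh18, another brain cadherin, had the opposite order, with 203 ppm in VitaminA, 122 ppm in ATRA, 109 ppm in BMS753 and 54.0 ppm in BMS961+BMS641. VitaminA and BMS961+BMS641 were each clear of all other sections, and ATRA and BMS753 overlapped. Cdh8, which marks groups of cortical and striatal neurons, varied least among the type II genes, with 112 ppm in VitaminA, 74.4 ppm in ATRA, 109 ppm in BMS753 and 98.8 ppm in BMS961+BMS641. Cdh20, of the same subfamily as Cdh7, stood at 119 ppm in VitaminA, 70.3 ppm in ATRA, 99.5 ppm in BMS753 and 85.7 ppm in BMS961+BMS641. For both genes the VitaminA and BMS753 quadrants overlapped.

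Cdh11, a cadherin of mesenchyme and also of neurons, stood at 31.2 ppm in VitaminA, 49.8 ppm in ATRA, 69.9 ppm in BMS753 and 29.3 ppm in BMS961+BMS641. The mesenchymal marker list did not follow it, at 269, 174, 223 and 118 ppm in the same order of sections. Cdh9, which joins hippocampal synapses, stood at 13.8 ppm in VitaminA, 9.83 ppm in ATRA, 19.9 ppm in BMS753 and 22.8 ppm in BMS961+BMS641. The quadrants of ATRA (7.29 to 11.6 ppm) lay below those of BMS753 (12.3 to 25.5 ppm) and BMS961+BMS641 (19.9 to 25.7 ppm), and those of VitaminA (9.05 to 20.4 ppm) overlapped all other sections. Cdh19, of neural crest and glial precursors of nerves, stood at 24.9 ppm in VitaminA, 16.8 ppm in ATRA, 45.2 ppm in BMS753 and 22.0 ppm in BMS961+BMS641, with BMS753 above the rest.

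Cdh24, a little-studied type II member, shows what the tied ranks do. As deposited it stood at 28.6 ppm in VitaminA, 29.1 ppm in ATRA, 53.9 ppm in BMS753 and 25.1 ppm in BMS961+BMS641. It was above the lowest class in only 2.02 to 6.34% of spots, and with that class at 0 its levels were 6.95, 2.48, 9.28 and 2.59 ppm. Its deposited level is therefore mostly the lowest class, and its order among sections is not read. Cdh5, named above, stood at 10.8 ppm in VitaminA and was detected in 9.78 to 16.4% of spots over the sections.

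Among the other cadherins, Cdh13 and Cdh23 were high everywhere. Cdh13 (T-cadherin, held in the membrane by a lipid anchor and lacking an inner tail) stood at 724 ppm in VitaminA, 486 ppm in ATRA, 931 ppm in BMS753 and 717 ppm in BMS961+BMS641. It was detected in 96.1 to 98.9% of spots in ATRA, BMS753 and BMS961+BMS641 and in 99.1% in VitaminA. In level BMS753 was highest and ATRA lowest without overlap. Set against the median gene, Cdh13 in BMS753 was at 0.05 over VitaminA and -0.26 over BMS961+BMS641, so BMS753 was not highest on that scale. Cdh23, which forms the tip links of hair cells together with Pcdh15, stood at 253 ppm in VitaminA, 394 ppm in ATRA, 300.5 ppm in BMS753 and 324 ppm in BMS961+BMS641. ATRA was clear of VitaminA and BMS753, and BMS961+BMS641 (259 to 429 ppm) overlapped all other sections.

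Cdh17, the cadherin of liver and intestine, stood at 25.6 ppm in VitaminA, 79.2 ppm in ATRA, 52.9 ppm in BMS753 and 59.0 ppm in BMS961+BMS641. ATRA and BMS961+BMS641 lay above VitaminA in every quadrant and overlapped each other, and detection was 56.0 and 59.2% there against 32.8% in VitaminA. Cdh16, a kidney cadherin, stayed between 2.11 and 5.36 ppm. It was not followed further.

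The delta-1 protocadherins were broadly detected, with Pcdh1 as the exception, and Pcdh7 was the 1 gene of the 4 that passed 2-fold in any comparison below. Pcdh7, described in subsets of neurons and in retinal ganglion cell axons, stood at 130.3 ppm in VitaminA, 53.3 ppm in ATRA, 113 ppm in BMS753 and 183 ppm in BMS961+BMS641. ATRA was lowest and BMS961+BMS641 highest without overlap. Pcdh9, a cortical and sensory neuron protocadherin, stood at 268 ppm in VitaminA, 184 ppm in ATRA, 336 ppm in BMS753 and 271 ppm in BMS961+BMS641. Its level was lowest in ATRA and highest in BMS753. The relative log2 ratio of BMS753 was 0.02 over VitaminA and -0.33 over BMS961+BMS641. Pcdh11x, an X-linked brain gene, stood at 141 ppm in VitaminA, 106 ppm in ATRA, 184 ppm in BMS753 and 194 ppm in BMS961+BMS641. All 3 were lowest in ATRA. Pcdh1, known from airway epithelium, stood between 6.07 and 12 ppm and was detected in at most 10.4% of spots.

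Delta-2 members went separate ways. Pcdh17, a synaptic protocadherin of corticostriatal circuits, followed Pcdh19 with 44.2 ppm in VitaminA, 125 ppm in ATRA, 79.2 ppm in BMS753 and 40.1 ppm in BMS961+BMS641. ATRA was clear of BMS753 and BMS753 of the others, and detection was 65.1% in ATRA against 30.6 to 36.7%. Pcdh8, whose product moves with N-cadherin at active synapses and is transient in early mesoderm, was highest in VitaminA, with 28.8 ppm there, 2.78 ppm in ATRA, 16.1 ppm in BMS753 and 3.10 ppm in BMS961+BMS641. Its detection had the same order, with 43.5% of spots in VitaminA, 22.8% in BMS753, 10.7% in BMS961+BMS641 and 7.42% in ATRA, and VitaminA and BMS753 were clear of each other and of the rest. Pcdh10 and Pcdh18, the remaining delta-2 genes, stayed between 1.64 and 6.60 ppm. Summed over the group, ATRA held 613 ppm, VitaminA 138 ppm, BMS753 152 ppm and BMS961+BMS641 77.1 ppm.

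Pcdh15, the partner of Cdh23 in tip links, stood at 538 ppm in VitaminA, 216 ppm in ATRA, 671 ppm in BMS753 and 320.1 ppm in BMS961+BMS641. All 4 sections were clear of each other in level, but the relative log2 ratio of BMS753 over VitaminA was 0.01. The order of Pcdh15 did not match that of Cdh23, which was highest in ATRA. The hair cell markers summed to 252 ppm in VitaminA, 193 ppm in ATRA, 254 ppm in BMS753 and 310.3 ppm in BMS961+BMS641. Among them Tmc1, a channel protein of hair cells, was at 216 ppm in BMS961+BMS641 against 71.6 to 87.9 ppm, and Otof, a synaptic protein of these cells, at 109.9 ppm in VitaminA against 33.2 to 59.6 ppm. The part of such cells in the levels of Cdh23 and Pcdh15 was not tested. Pcdh20 stayed between 0.687 and 3.27 ppm. Cdh16, Cdh5, Pcdh1, Pcdh10, Pcdh18 and Pcdh20 were the 6 members that did not reach 20 ppm in any section, and the other 29 are those given with all 4 levels.

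Pairs of sections were then compared on a relative log2 scale, on which the ratio of levels (plus 1 ppm) is set against the median ratio of all genes with at least 5 ppm in either section. That median was not 0: it ran from -0.33 for ATRA over VitaminA to 0.71 for BMS753 over ATRA. A member was counted as higher or lower past 2-fold, that is a relative log2 ratio of at least 1 or at most -1. The share of all genes past the same line is given beside each count on this scale. Without centring that share is not given, so those counts show only how far the members' counts move with the scale. The 3 comparisons with VitaminA share its section and the others likewise share sections, so their values are given side by side only.

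Over VitaminA, ATRA had 8 of 33 members higher and 1 lower, beside 12.1% of all genes higher and 14.6% lower. The members' share was 24.2% for higher and 3.03% for lower. Their median was 0.28 where that of all genes is 0, but its sign turned with no filter on level (-0.05), with spots of equal weight (-0.06) and without centring (-0.06). The members that were higher were Pcdh12 (4.73), Cdh26 (3.45), Pcdh19 (3.40), Cdh22 (2.38), Cdh6 (2.25), Cdh17 (1.92), Pcdh17 (1.81) and Cdh12 (1.31). The levels of these genes were higher in all quadrants, for which the share of all genes is not given. These higher members come from 4 of the 6 structural groups and from no type I or delta-1 gene. Pcdh8 was lower, at -2.65, and Cdh11 (0.99), Cdh23 (0.97), Pcdh15 (-0.98) and Pcdh7 (-0.94) lay just inside the line. The number of lower members was 2 to 4 under 5 of the 8 alternatives described at the end, and without centring on the median gene 7 members were higher and 4 lower.

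BMS753 over VitaminA had 0 of 32 members higher and 3 lower, beside 9.06% and 14.8% of all genes. The lower ones were Cdh4 (-1.51), Cdh18 (-1.19) and Pcdh8 (-1.11), and the members' median was 0.05. These counts depend on the scale. Without centring 3 members were higher and 1 lower, and with the lowest class at 0 the counts were the same, where only Cdh4 (-1.22) remained lower and Cdh18 (-0.90) and Pcdh8 (-0.82) did not.

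BMS961+BMS641, at a lower dose, had 6 of 32 members higher and 3 lower than VitaminA, beside 13.6% and 14.3% of all genes. Higher were Cdh15 (5.57), Cdh1 (3.83), Cdh7 (1.73), Cdh17 (1.43), Cdh10 (1.25) and Cdh3 (1.10), of which 3 are type I genes. Lower were Pcdh8 (-2.61), Cdh18 (-1.64) and Cdh22 (-1.03), and Cdh22 was no longer past the line with the lowest class at 0 (-0.76). The members' median was 0.14, and without centring 4 were higher and 5 lower.

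**Figure D2:**
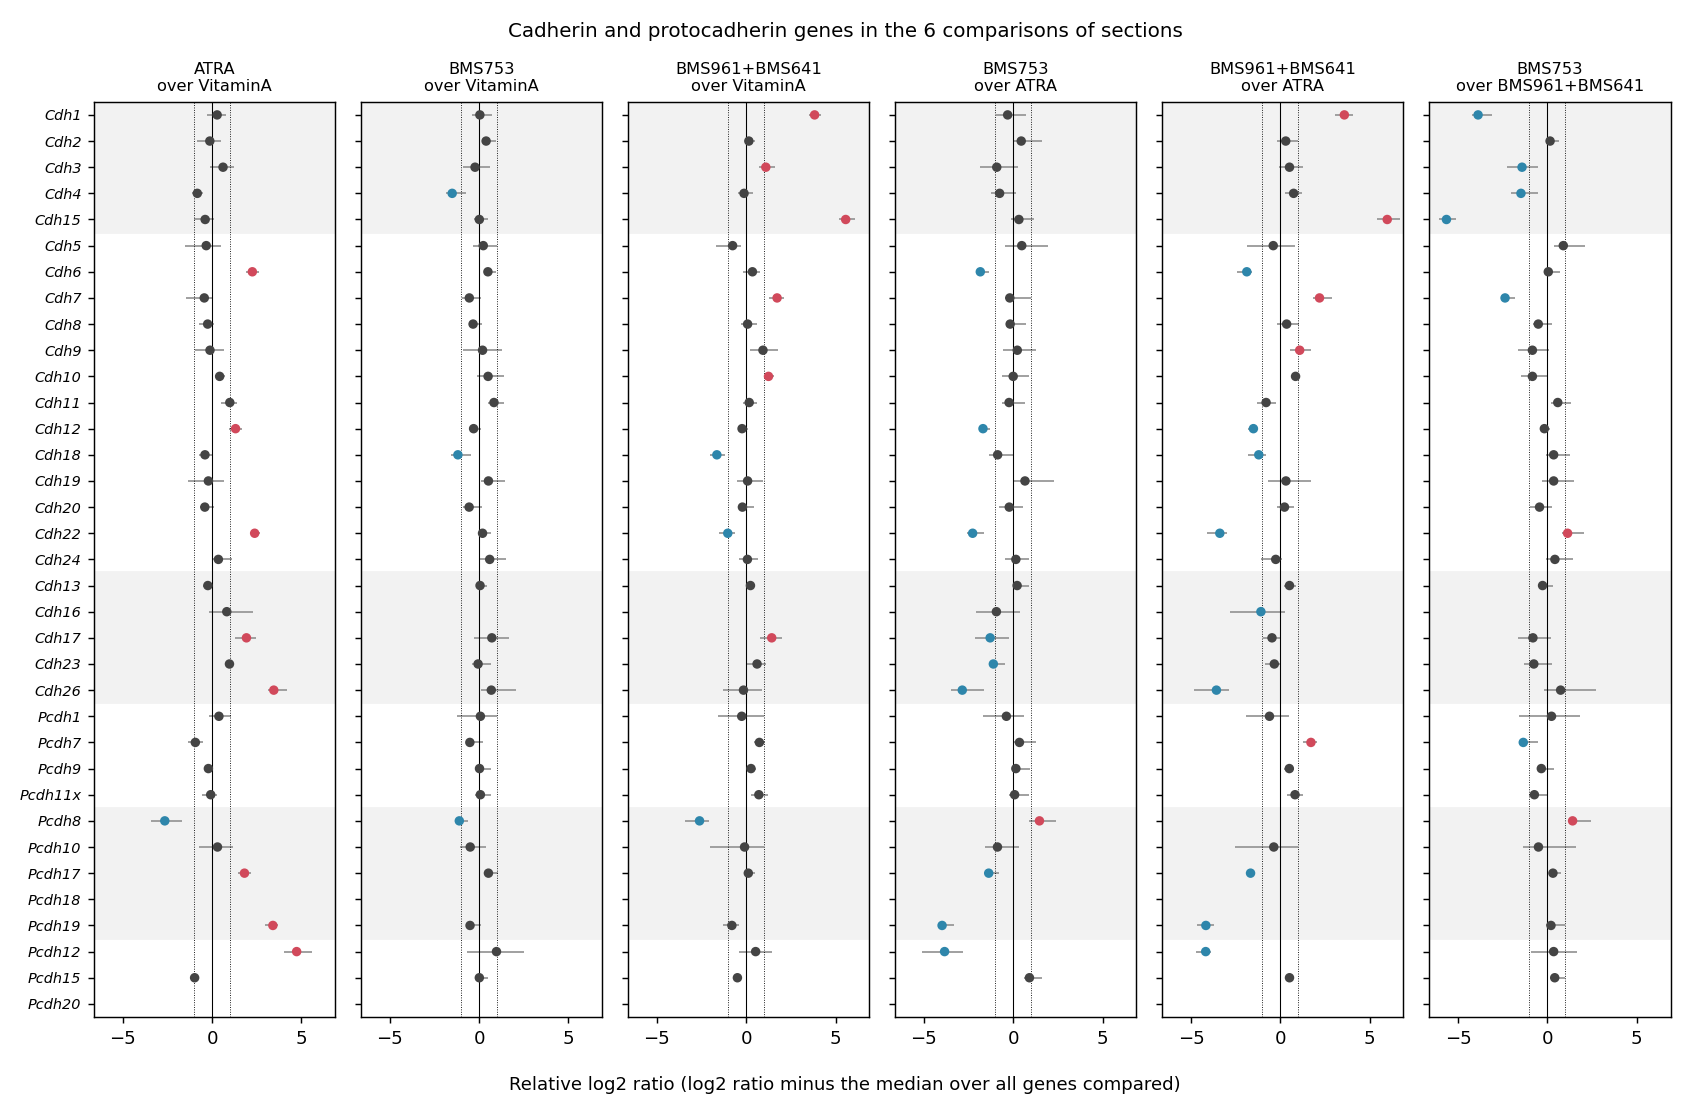
Relative log2 ratio of each gene in the 6 comparisons of sections, with bars from the lowest to the highest of the 16 pairs of quadrants and dotted lines at 2-fold; red points lie past 2-fold higher, blue points past 2-fold lower, and genes under 5 ppm in both sections have no point. The farthest points are those of Cdh15, at 5.99 in BMS961+BMS641 over ATRA, -5.64 in BMS753 over BMS961+BMS641 and 5.57 in BMS961+BMS641 over VitaminA.

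ATRA and BMS753 were given at the same dose for the same time, and BMS753 over ATRA had 1 of 33 members higher and 9 lower, beside 6.77% and 14.6% of all genes. Lower were Pcdh19 (-3.98), Pcdh12 (-3.84), Cdh26 (-2.85), Cdh22 (-2.27), Cdh6 (-1.84), Cdh12 (-1.69), Pcdh17 (-1.37), Cdh17 (-1.29) and Cdh23 (-1.11), and Pcdh8 was higher (1.47). The quadrants of Cdh17 overlapped and those of the other genes named here did not. The share of all genes without overlap is not given, so this describes single genes only. The share of members lower was 27.3%, and their median was -0.23. Without centring 7 members were higher and 5 lower, where the median gene was 0.71 higher in BMS753. The share of all genes past that line is not given, so these counts are not read as a trait of the members.

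Between the pair of agonists and ATRA the doses differ, so the values stand side by side only. BMS961+BMS641 over ATRA had 5 of 32 members past 2-fold higher, beside 14.9% of all genes, and 9 lower, beside 12.3%. Higher were Cdh15 (5.99), Cdh1 (3.59), Cdh7 (2.20), Pcdh7 (1.72) and Cdh9 (1.09). Lower were Pcdh12 (-4.17), Pcdh19 (-4.16), Cdh26 (-3.57), Cdh22 (-3.38), Cdh6 (-1.87), Pcdh17 (-1.66), Cdh12 (-1.50), Cdh18 (-1.20) and Cdh16 (-1.08), the last at levels of 2.11 and 5.36 ppm with overlapping quadrants. The members' share was 15.6% for higher and 28.1% for lower. Their median was -0.01, and 0.40 with genes of at least 20 ppm.

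BMS753 over BMS961+BMS641, again at different doses, had 2 of 32 members higher, beside 6.41% of all genes, and 6 lower, beside 15.7%. Lower were Cdh15 (-5.64), Cdh1 (-3.87), Cdh7 (-2.36), Cdh4 (-1.47), Cdh3 (-1.41) and Pcdh7 (-1.34), and higher were Pcdh8 (1.42) and Cdh22 (1.14). Of the 5 type I genes, 4 were lower in BMS753, the exception being Cdh2 (0.16). The members' median was -0.21, and without centring 10 were higher and 3 lower.

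How narrowly each gene was confined to a section was also counted by detection. A gap of at least 40 percentage points between the section of widest detection and the next, chosen after the values were seen, was found for Cdh15 (78.1 points) and Cdh1 (58.1 points) in BMS961+BMS641 and for Pcdh12 (53.4 points), Pcdh19 (47.6 points) and Cdh26 (42.0 points) in ATRA. Cdh7 came closest below the line, with 36.4 points. That is 5 of 35 members (14.3%), and 896 of 19783 genes listed in all sections (4.53%). Over all genes the gap was in VitaminA for 286, in ATRA for 239, in BMS961+BMS641 for 365 and in BMS753 for 6.

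Genes next to these members on the chromosome, as ordered in RefSeq GRCm38.p6, were looked at beside them. Cdh3 directly precedes Cdh1 and was highest in the same section, at 48.7 ppm in BMS961+BMS641 against 26.6 to 32.5 ppm elsewhere, with detection of 55.3% against 30.7 to 36.9% of spots. Tango6, which follows Cdh1, was not highest there, with 62.6 ppm against 60.2 to 98.7 ppm elsewhere. Acsf3 and Ankrd11, beside Cdh15, stood at 70.1 and 120.3 ppm in BMS961+BMS641, against 49.5 to 77.2 ppm and 123 to 178 ppm elsewhere. Diaph2, before Pcdh19, was lowest in ATRA, at 184 ppm against 198 to 395 ppm elsewhere, and Rnf14, which overlaps Pcdh12, was at 1.26 ppm in ATRA and 0.904 to 1.71 ppm elsewhere. The reads of overlapping genes are hard to assign without strand, and whether counting used strand is not given in the sources used here.

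Several members are neighbours of each other. Cdh6, Cdh9, Cdh10, Cdh12 and Cdh18 follow each other on chromosome 15, with no other gene between them in the table save those inside Cdh12 and Cdh18. In ATRA over VitaminA they stood at 2.25, -0.12, 0.42, 1.31 and -0.40, so Cdh6 and Cdh12 were past 2-fold and the genes between and after them were not. In BMS961+BMS641 over VitaminA the same row read 0.35, 0.94, 1.25, -0.23 and -1.64. On chromosome 1 Cdh7 (1.73) is followed by Cdh19 (0.08) in that comparison.

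Levels of different genes can be set side by side only per length. The spans of the members run from 4.54 kb (Pcdh8) to 1554 kb (Pcdh15), with a median of 123 kb against 18.4 to 19.6 kb over all genes. Detection followed span: over all genes the Spearman correlation of span with the share of spots was 0.80 to 0.84, and over the 35 members 0.75 to 0.89, as a description across genes that share the same spots. The members' median detection, 36.7 to 55.3% of spots against 8.26 to 12.1% for all genes, is thus read beside their spans. Per kb of span, Cdh15 in BMS961+BMS641 was the highest member level (34.1 ppm per kb, percentile 99.6 of all genes), followed by Cdh1 in the same section (7.50 ppm per kb) and Pcdh12 in ATRA (7.49 ppm per kb). Pcdh8 in VitaminA came next, with 6.35 ppm per kb in percentile 95.7, although its level was only 28.8 ppm. Cdh13 and Pcdh15, the members with large levels and the longest spans, stood at 0.410 to 0.786 and 0.139 to 0.432 ppm per kb.

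**Figure D3:**
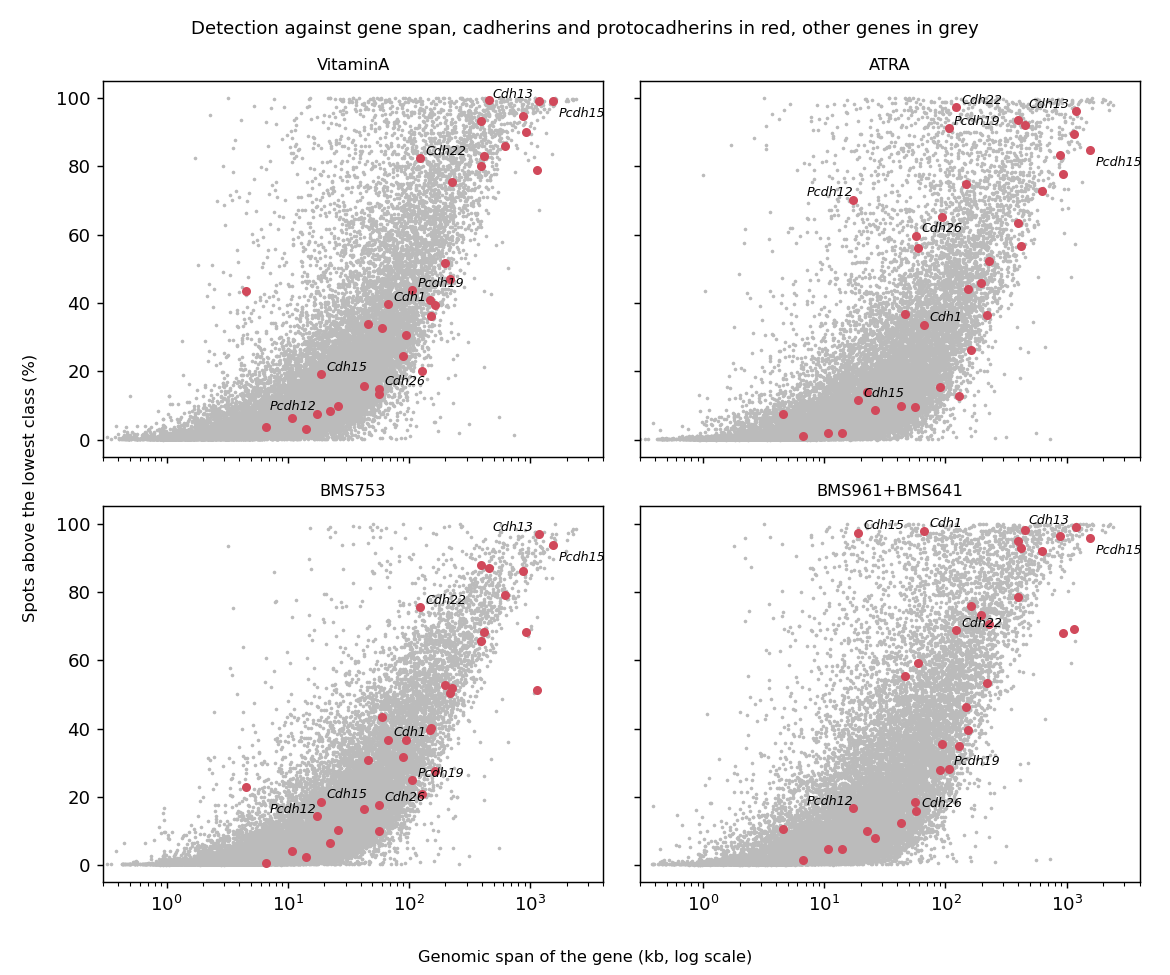
Share of spots in which a gene is above the lowest class (percent) against its genomic span (kb, log scale) in each section; red points are the 35 cadherin and protocadherin genes and grey points all other genes with a span. Long genes such as Cdh13 and Pcdh15 are detected in most spots, and Cdh15 and Cdh1 stand at 97.3% and 97.8% in BMS961+BMS641 despite spans of 19.0 and 66.9 kb.

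Together the members held 4278 ppm in VitaminA, 4465 ppm in ATRA, 4439 ppm in BMS753 and 4872 ppm in BMS961+BMS641. By level, not set per length, the leading gene differed. It was Cdh4 in VitaminA (916 ppm), Cdh22 in ATRA (640.5 ppm) and Cdh13 in BMS753 (931 ppm) and BMS961+BMS641 (717 ppm). The top 3 members held 50.9%, 35.9%, 45.0% and 42.5% of the members' signal in the same order. Per kb of span, Cdh13 in BMS961+BMS641 stood at 0.605 ppm against 34.1 ppm for Cdh15, so this order is one of signal only.

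The arrangement of the members within sections was described by Moran's I. This measure, which is near 0 for a random arrangement of spots and near 1 for smooth patches, had a median over members of 0.01 in BMS961+BMS641, 0.02 in VitaminA and 0.03 in both ATRA and BMS753, beside 0.00 to 0.01 for all genes. Among genes of at least 20 ppm the median was 0.08 for 24 members in BMS753 against 0.04 for all such genes, and 0.02 to 0.04 in the other sections for members and for all such genes. The highest value was 0.16, for Cdh4 in BMS753, followed there by Pcdh15 (0.13). Cdh1 and Cdh15, so wide in BMS961+BMS641, were both at 0.01 in that section. Over spots, the Spearman correlation between pairs of members had a median of 0.03 to 0.09, and no pair reached 0.3, the highest being 0.26 in BMS753. These are sparse values of spots that share a library, and correlations of this size are no finding. Members correlated more with the number of genes detected in a spot, with medians of 0.18 to 0.30.

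Edge spots, with fewer than 8 occupied neighbours on the grid, were set against the interior. The relative log2 difference lay between -0.88 and 0.53 for every member in VitaminA, ATRA and BMS961+BMS641. In BMS753 it reached 1.63 for Pcdh20, at 3.14 and 0.310 ppm and with 3 of 469 spots above the lowest class, and no other member passed 2-fold. Pcdh20 is too rarely detected for this value to be read. With edges of fewer than 6 neighbours, differences of 2-fold or more were seen for Pcdh10 in ATRA (-1.51) and BMS753 (1.12), Cdh16 in VitaminA (-1.01) and BMS961+BMS641 (1.00), and Cdh26 (-1.13) and Cdh5 (-1.09) in BMS961+BMS641. Each of these stood at 2.11 to 6.45 ppm in that section.

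**Figure D4:**
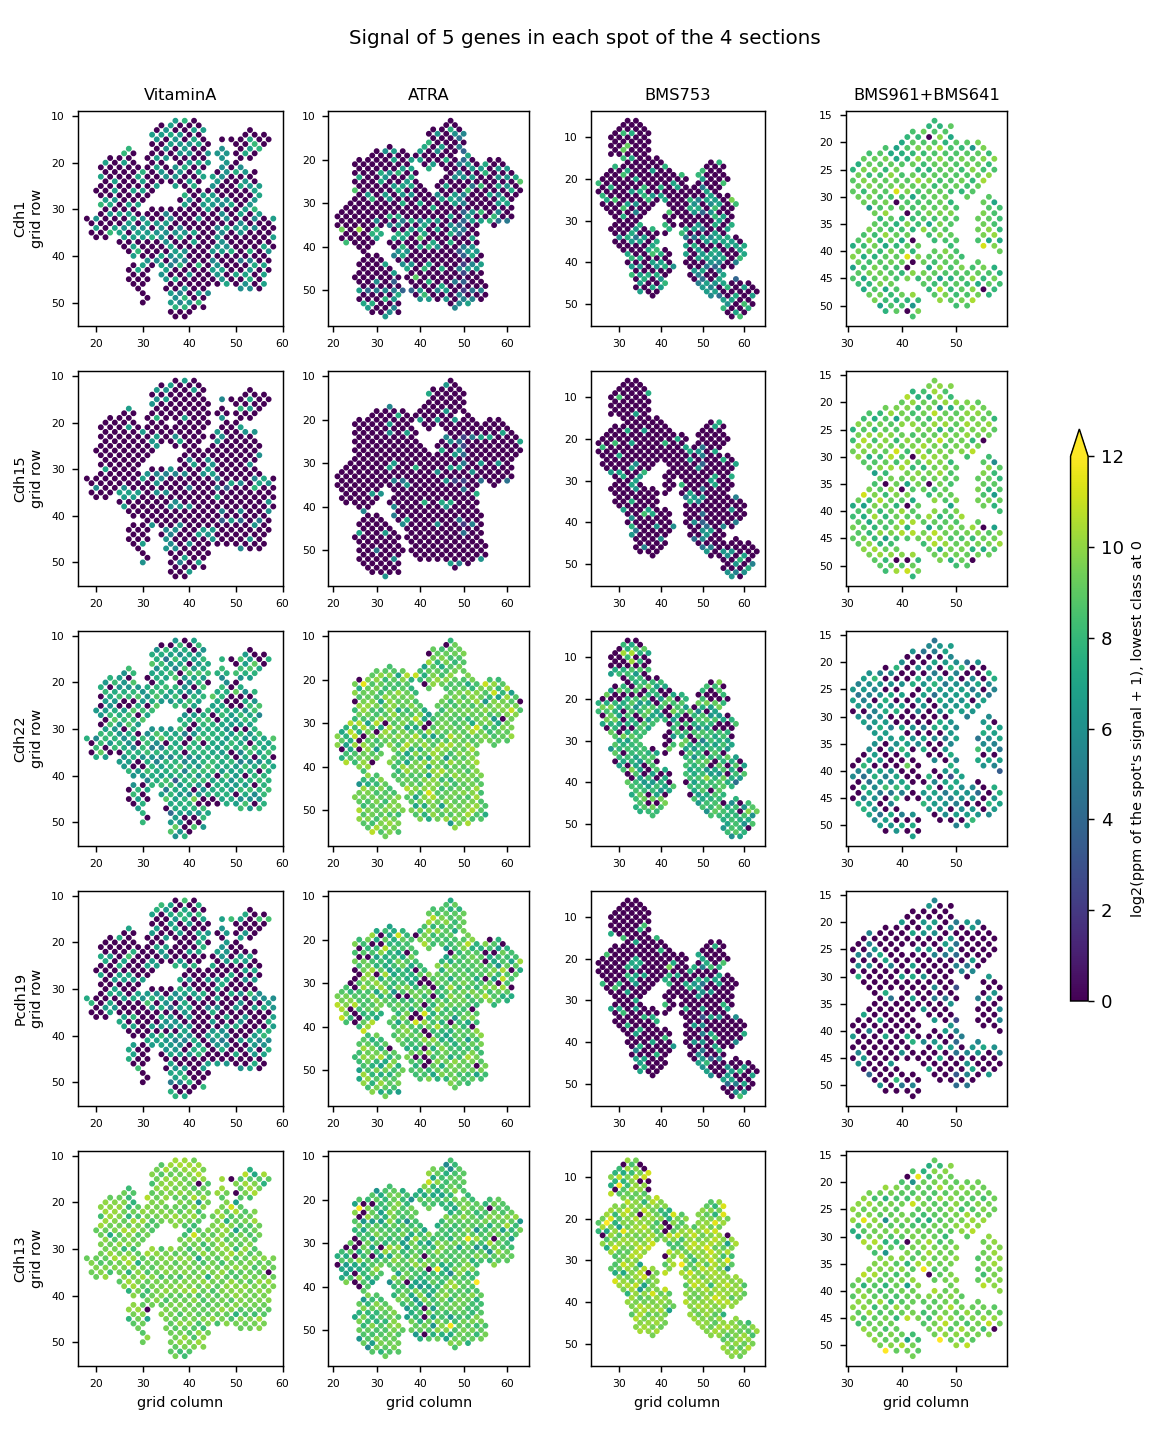
Maps of Cdh1, Cdh15, Cdh22, Pcdh19 and Cdh13 in the spots of the 4 sections (axes are grid row and column; colour is log2 of the ppm of a spot plus 1, with the lowest class at 0). Cdh1 and Cdh15 fill the BMS961+BMS641 section, where they were detected in 97.8% and 97.3% of spots, Cdh22 and Pcdh19 fill ATRA, and Cdh13 is detected in at least 96.1% of spots everywhere.

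Proteins that work with cadherins were taken from fixed lists. Their counts past 2-fold over VitaminA stand beside those of all genes, which were 12.1% higher and 14.6% lower in ATRA, 9.06% and 14.8% in BMS753, and 13.6% and 14.3% in BMS961+BMS641. When the lowest class was set to 0, 10.8 to 17.5% of all genes were higher and 15 to 15.2% lower. The lists are short, so a count of 1 or 2 genes is not read as a difference from these shares. Of 11 catenins, which link cadherin tails to actin, 2 were past 2-fold higher and 2 lower in BMS961+BMS641 over VitaminA, with a median of -0.20. The higher ones were Ctnnd1 (p120 catenin, which keeps cadherins at the surface; 1.76) and Jup (plakoglobin; 1.37). Ctnnd1 stood at 41.8 ppm in VitaminA, 40.1 ppm in ATRA, 41.0 ppm in BMS753 and 121 ppm in BMS961+BMS641, high in the section in which Cdh1 was high. In ATRA over VitaminA 1 catenin was higher, Ctnna3 (1.42), and 1 lower, Ctnnal1 (-1.28), and in BMS753 over VitaminA 0 were higher and 1 lower. Counts of higher and lower catenins with the lowest class at 0 were 2 and 0 in ATRA, 1 and 1 in BMS753 and 2 and 1 in BMS961+BMS641.

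Repressors and regulators of E-cadherin transcription were compared in 7 of 9 cases. Snai1, the Snail repressor, stood at 9.18 ppm in VitaminA, 661 ppm in ATRA, 32.5 ppm in BMS753 and 72.7 ppm in BMS961+BMS641. Zeb1, another repressor, stood at 33.8 ppm in VitaminA, 197 ppm in ATRA, 49.2 ppm in BMS753 and 286 ppm in BMS961+BMS641. Zeb1 was thus highest in the section with the highest Cdh1. Snai1 was highest in ATRA, where the Cdh1 quadrants overlapped those of VitaminA and BMS753. On the relative scale Cdh1 was not lowest in ATRA, with 0.28 in ATRA over VitaminA and -0.31 in BMS753 over ATRA. Over VitaminA, 2 of the 7 were higher in ATRA, 2 in BMS753 and 3 with the BMS961 and BMS641 pair, and 0 were lower. BMS753 had 4 of 8 higher and 1 lower with the lowest class at 0, and the other counts were the same. Snai2, one of the genes higher in BMS753, was detected in 3.41% of the spots there, and its 23.1 ppm became 6.96 ppm on that scale.

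Desmosomal genes, whose cadherins form spot junctions, had 4 of 10 higher and 1 lower in ATRA over VitaminA and 2 higher and 1 lower in BMS961+BMS641 over VitaminA. Pkp2, a plaque protein, stood at 94.0 ppm in ATRA against 8.07 to 11.9 ppm elsewhere. Dsg2 stood at 15.1 ppm in VitaminA, 64.3 ppm in ATRA, 22.2 ppm in BMS753 and 102 ppm in BMS961+BMS641, and Dsg4 at 285 ppm in BMS961+BMS641 against 30.8 to 61.4 ppm. In BMS753 over VitaminA 1 of 10 was higher and 1 lower. With the lowest class at 0, ATRA had 6 of 12 higher and 0 lower, BMS753 2 of 12 higher and 1 lower, and BMS961+BMS641 2 of 11 higher and 2 lower. Dsg1b, Dsg1c and Dsg4 were past 2-fold in ATRA on that scale (1.88, 1.81 and 1.33), and their deposited levels there, 44.8, 26.8 and 41.7 ppm, became 27.6, 11.8 and 22.7 ppm.

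Of 10 atypical cadherins, 0 were higher and 2 lower in ATRA, 0 and 3 in BMS753 and 0 and 3 in BMS961+BMS641, each over VitaminA. Setting the lowest class to 0 gave ATRA 1 higher and 2 lower, BMS753 0 and 2, and BMS961+BMS641 0 and 3. Fat2, a protocadherin of cerebellar granule cells, stood at 185 ppm in VitaminA, 37.9 ppm in ATRA, 75.1 ppm in BMS753 and 50.4 ppm in BMS961+BMS641. Among 8 cadherin-related genes compared, 2 were higher and 2 lower in ATRA over VitaminA, and Clstn2, a synaptic calsyntenin, stood at 1205 ppm in ATRA against 263 to 416 ppm. In BMS753 over VitaminA 0 of the 8 were higher and 2 lower, and in BMS961+BMS641 over VitaminA 0 and 3. On the scale with the lowest class at 0, 1 in place of 2 was lower in ATRA, and the other counts were the same.

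Of 6 proteases and clearance factors compared, 2 were higher and 1 lower in ATRA over VitaminA, 0 and 3 in BMS753 and 2 and 1 in BMS961+BMS641. With the lowest class at 0, ATRA had 2 higher and 2 lower and BMS753 0 and 4. Psen2, a subunit of the gamma-secretase that cuts cadherin stubs, stood at 1218 ppm in ATRA against 5.22 to 17.8 ppm elsewhere, and Adam10, the sheddase of N- and E-cadherin, at 83.8 ppm in VitaminA and 36.2 to 66.9 ppm elsewhere. Of 13 actin links, 1 was higher and 0 lower in ATRA over VitaminA, where vinculin (Vcl) stood at 511 ppm against 46.9 to 51.6 ppm. BMS961+BMS641 had 3 higher and 1 lower, with Cyfip2, of the WAVE complex, at 383 ppm against 46.0 to 98.6 ppm, and BMS753 had 0 and 1, which became 1 and 1 with the lowest class at 0. Psen2, Vcl and Snai1 were thus far above their other levels in ATRA, as Pcdh19 and Pcdh12 were.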

How the data were processed

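Spatial transcriptomes of 4 sections, 1 for each treatment, were used as deposited. The deposited values are signal, 1 value for each gene in each spot, and carry a quantile normalisation mark from the authors. A check bore this out, since the sorted values of all spots of a section were equal up to a factor for each spot. Sections were captured on printed poly-T arrays with position barcodes and sequenced as paired ends, per the labels' protocols. Reads were placed on mm9 (per the submitters' processing notes). How reads were aligned and counted and which spots were kept is not given in the sources used here. Quantile normalisation replaces the counts of a spot by values set by rank, so neither counts nor counting errors can be had. The sums of spots still differed, by 25.6 to 43.7 times between the highest and the lowest spot of a section, and spots of equal weight were an alternative. Sections shared 269 to 417 grid positions in pairs, as arrays of a common design do.

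The level of a gene was its mean signal over spots in ppm of the sum over genes. Ratios of levels, each plus a pseudocount of 1 ppm, were taken as log2 for genes that reached 5 ppm in at least 1 section of the comparison, and their median was subtracted. The median row and column divided a section into 4 quadrants, which gave 16 pairs for a comparison. Moran's I and edges used the 8 neighbouring positions of the grid. The lowest class was found as the run of smallest positive values that rises with gene order. Spans and gene order came from RefSeq (GRCm38.p6, matched by symbol for 22183 of 22218 genes), another build than that of the files, and promoter sequences from the RefSeq table of that build. The steps were tested on simulated data. The software was numpy 2.4.6, scipy 1.17.1, pandas 2.3.3 and matplotlib 3.10.9 under Python 3.11.15.

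All 4 levels were given for members of at least 20 ppm in a section that lay above the lowest class in at least 5% of its spots. Up to 3 genes of a partner or marker list were named, those of the most extreme relative log2 ratio in a comparison among genes of at least 20 ppm, and some defining markers beside them were chosen after their values were seen. The members, the lists and the rule were chosen with earlier results of these data known, and the gap of 40 percentage points, the motifs and the look at neighbouring genes after the data were seen. Alternatives changed the lowest class, pseudocount, filter, weight of spots, centring, the 10 genes with the most signal, edge spots and quadrants. The monolayer single-cell and chromatin data named in the series' design were not analysed here.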

Additional observations from a re-analysis of the deposited data

How the results depend on the processing

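No paired analysis was possible because each treatment has 1 section and no replicate numbers. No quantity here has an error between organoids, and depth is unknown, so genes seen in few spots, such as Cdh24 and Pcdh20, have levels that cannot be ordered. The counts of members past 2-fold and the members' median moved under these settings, and not every move is listed. Without centring, ATRA over VitaminA had 4 lower and a median of -0.06, BMS753 over VitaminA 3 higher, 1 lower and 0.35, and BMS961+BMS641 over VitaminA 5 lower and -0.12. BMS753 over ATRA then had 7 higher, 5 lower and 0.48, and BMS753 over BMS961+BMS641 10 higher, 3 lower and 0.43. With the lowest class at 0, ATRA over VitaminA had 11 higher in place of 8, and BMS753 over VitaminA 3 higher, 1 lower and a median of 0.29. BMS961+BMS641 over VitaminA then had 8 higher in place of 6 and a median of 0.39, and BMS753 over ATRA 2 higher. With genes of at least 20 ppm, ATRA over VitaminA had 3 lower, BMS753 over ATRA 0 higher, BMS961+BMS641 over ATRA a median of 0.40, and BMS753 over BMS961+BMS641 1 higher and a median of -0.41. With no filter, ATRA over VitaminA had a median of -0.05, BMS753 over VitaminA 1 higher and BMS753 over ATRA 2 higher. With spots of equal weight, ATRA over VitaminA had 2 lower and a median of -0.06, and BMS753 over ATRA 2 higher. A pseudocount of 5 ppm gave 2 lower for ATRA over VitaminA and 1 higher for BMS753 over BMS961+BMS641. Without edge spots ATRA over VitaminA had 3 lower, BMS753 over ATRA 11 lower in place of 9, and BMS753 over VitaminA a median of -0.03. Leaving out the 10 genes with the most signal gave 9 higher for ATRA over VitaminA and a median of -0.16 for BMS753 over BMS961+BMS641, and moved no other count and no other median by more than 0.01. The cause was not tested. Fewer members pass a stricter filter, yet ATRA over VitaminA had 3 lower with genes of at least 20 ppm in place of 1. The edge difference of Pcdh20 in BMS753, 1.63, was -0.97 when edges had fewer than 6 neighbours. Of the 140 edge differences of members, 118 moved by less than 0.5 on the log2 scale and 21 by at least 0.5, and the remaining 1 is that of Pcdh20.

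Leaving out 1 quadrant at a time gave these ranges of higher members, lower members and median. They were 8 to 10, 1 to 3 and 0.08 to 0.34 for ATRA over VitaminA, 0 to 1, 3 to 3 and -0.02 to 0.12 for BMS753 over VitaminA, and 6 to 7, 2 to 3 and 0.11 to 0.22 for BMS961+BMS641 over VitaminA. They were 1 to 2, 9 to 11 and -0.39 to -0.11 for BMS753 over ATRA, 4 to 5, 8 to 10 and -0.09 to 0.23 for BMS961+BMS641 over ATRA, and 1 to 3, 6 to 6 and -0.25 to -0.14 for BMS753 over BMS961+BMS641.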
